A study of Mus musculus with 9 samples.

Results

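Krüppel-like factors (KLFs) are transcription factors with 3 zinc fingers at the carboxyl end that bind GC-rich and CACCC sites in DNA. The present report describes 8 of their genes, Klf2, Klf3, Klf4, Klf6, Klf7, Klf9, Klf10 and Klf13, in stromal vascular fractions (SVFs) of mouse inguinal fat after wound repair priming. The probe sets of these genes were found by name in the array annotation, but the members were chosen with earlier results of these data known. A probe set was used for a gene only where the annotation gave that gene as its single symbol. All 8 genes were measured and tested, among 11796 tested genes of 18193 that had such a probe set. They are read by 30 probe sets, of which 28 passed the filter on detection given below.

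The SVF is what remains of enzymatically digested fat once the floating adipocytes are removed, and it holds stromal, vascular and blood-derived cells. All groups were wild type Balb/c mice, labelled as 10 weeks old. They differed in the day after surgical injury of the inguinal fat, which was day 0, day 1 or day 3, and day 0 serves as the nonprimed control. Priming in the study joins this injury with ischemia, though the labels name the injury alone. There were 3 arrays a day, each from an individual mouse.

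KLF proteins fall into 3 groups by the partners they bind. Klf3 belongs to the repressors that recruit the C-terminal binding proteins. Klf2, Klf4, Klf6 and Klf7 belong to a group that mostly recruits acetyltransferases and activates transcription. Klf9, Klf10 and Klf13 bind the corepressor Sin3a. In fat tissue, several KLFs are known as switches of adipocyte differentiation, in both directions, while Klf2 is known for keeping endothelial cells and naive T cells quiescent. In bulk RNA of a mixture like the SVF, fewer cells of a type and less RNA per cell cannot be told apart.

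After priming, 4 of the 8 genes fell on day 1 and 3 on day 3, where 17.9% and 12.5% of all genes tested fell. None of the 8 rose, where 10.7% and 13.6% of all genes did. The counts depended on the processing, as given at the end. Klf9, a target of the glucocorticoid receptor, fell on both days, by 0.88 ± 0.13 (SE) and 1.06 ± 0.13 on the log2 scale, and all its 6 probe sets that passed the filter fell. Klf2 fell on both days by a similar size but with wide differences between mice. Klf13 and Klf7 fell on day 1 and did not pass on day 3. The call of Klf7 was weak and was lost in 7 of 9 fits that each left out 1 array. Klf4 fell on day 3. Klf3, Klf6 and Klf10 did not pass the test on either day by the probe set that represents them.

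Values are MAS5 signals on a linear scale, summarised by the authors from the probes of each probe set and scaled so that every array had a trimmed mean of 500. A probe set was used if at least 1 day had it present in each of its 3 mice, and the brightest such probe set stands for its gene. A linear model of log2 signal on day was fitted in limma over the 9 arrays, and a gene was called at a Benjamini-Hochberg adjusted p under 0.05 over all 11796 genes. Signals of different probe sets are not compared with each other, since probes differ in brightness. On day 1 the median of all genes moved by -0.13 on the log2 scale, and centring each array on its median took this to -0.01. Among all genes called on day 1, 62.5% were lower, against 42.8% after centring and 51.8% after quantile normalization. Changes of the members on day 1 are therefore given after centring as well.

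The promoter of Klf2 is shown because this gene is known to be switched on through the kinases Map2k5 (MEK5) and Mapk7 (ERK5) and the MEF2 factors, whose genes were also on the array. The 250 bases before the RefSeq start of the gene lie at chr8:72318812-72319061 on the + strand of GRCm38.p6, written 5′ to 3′ with a MEF2 site in capitals, and those of Klf4 at chr4:55532476-55532725 on the - strand with its GC boxes in capitals.
Klf2: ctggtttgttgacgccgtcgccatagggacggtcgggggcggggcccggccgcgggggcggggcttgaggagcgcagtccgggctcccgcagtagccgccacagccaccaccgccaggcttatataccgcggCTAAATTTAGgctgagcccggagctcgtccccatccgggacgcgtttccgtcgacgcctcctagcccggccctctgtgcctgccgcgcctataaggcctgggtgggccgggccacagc
Klf4: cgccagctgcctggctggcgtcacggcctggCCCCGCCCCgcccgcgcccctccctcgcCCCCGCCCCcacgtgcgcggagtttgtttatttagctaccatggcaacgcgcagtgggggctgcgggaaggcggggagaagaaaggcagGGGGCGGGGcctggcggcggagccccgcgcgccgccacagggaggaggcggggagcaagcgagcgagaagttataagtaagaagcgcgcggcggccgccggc

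RefSeq promoters of 7 of the 8 genes, all but Klf10, were read. On both strands, the MEF2 site (a core of A and T bases between CTA and TAG) was found in 167 of 32851 promoters of this length, or 0.508%, and among the members in that of Klf2 alone, at bases -118 to -109 from the start. The GC box, searched as GGGGCGGGG, is a site that KLF and Sp proteins can bind. It was found in 10.4% of all promoters and in those of Klf2, Klf3, Klf4 and Klf13, with 2 matches in Klf2 and 3 in Klf4. The CACCC box, searched as CCNCACCC, was found in 14.9% of all promoters and in those of Klf3 and Klf7. No member held a CArG box, the site of the serum response factor Srf, which 1.47% of promoters held. These are matches of letters and not measured binding.

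**Figure D1:**
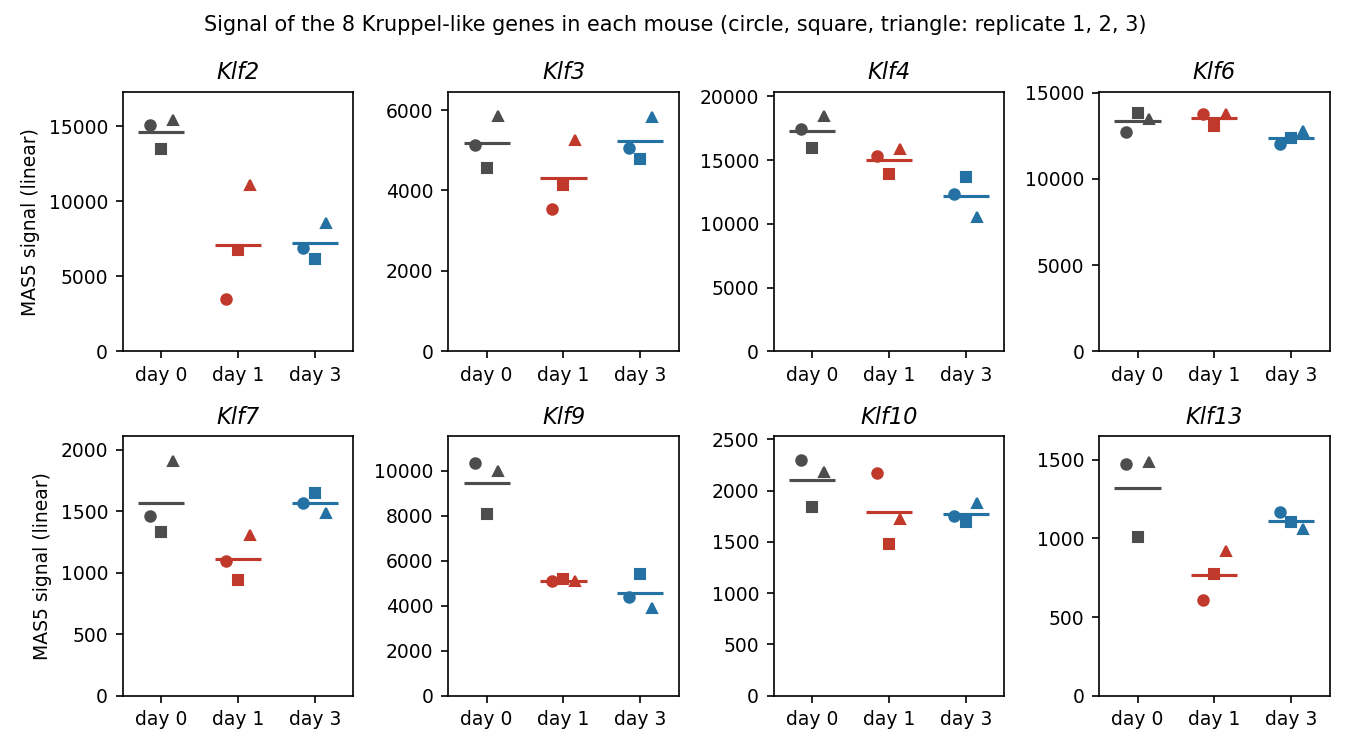
MAS5 signal on a linear scale (y axis, from 0) of the probe set representing each of the 8 genes, in each mouse on days 0, 1 and 3 (x axis); the bar is the mean of 3 mice. For Klf9 the mice of days 1 and 3 lie between 3901 and 5400, all under the lowest day 0 mouse at 8081, whereas the 3 day 1 mice of Klf2 spread from 3495 to 11050.

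Among the activator group, Klf2 had the largest fall on day 1 of the 8 genes. Its signal was 15070, 13460 and 15400 in the mice of day 0, 3495, 6721 and 11050 on day 1, and 6910, 6122 and 8573 on day 3. Every primed mouse lay under every control mouse, but the day 1 mice differed by more than 3-fold among themselves. The log2 change was -1.20 ± 0.31 on day 1 (adjusted p = 0.0153) and -1.04 ± 0.31 on day 3 (adjusted p = 0.0287). After centring the change on day 1 was -1.08 ± 0.30. The size on day 1 rested on single mice: it was -0.76 without day 1 replicate 1 and -1.59 without day 1 replicate 3, and the adjusted p rose to 0.0551 without day 0 replicate 3. The call on day 3 was lost without any 1 of the 3 control arrays or without day 3 replicate 1 or 2, with adjusted p up to 0.101.

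T cell and B cell markers were lower on days 1 and 3, as Klf2 was. Of 7 T cell markers listed, 5 were tested (Cd3d, Cd3e, Cd3g, Cd8a and Cd5), and 4 of them fell on each day, while Cd4 was present on 0 arrays. Their summed signal was 14990 to 18380 on day 0, 3904 to 10810 on day 1 and 5170 to 7574 on day 3. Their mean log2 signal relative to day 0 was -2.23, -0.97 and -0.59 in day 1 replicates 1, 2 and 3, the same order as Klf2 in these mice. On day 3 it was -1.64, -1.46 and -1.08, an order other than that of Klf2, which was lowest in replicate 2. On day 0 it was -0.05, 0.06 and -0.01 and so highest in replicate 2, where Klf2 was lowest. Of 6 B cell markers listed, 5 were tested, and 3 of them fell on each day. Their mean was -1.52, -1.18 and -0.37 on day 1 and -1.002, -1.88 and -0.87 on day 3, in the order of Klf2 on both days. On day 0 it was 0.44, -0.23 and -0.20 and so highest in replicate 1, while Klf2 was highest in replicate 3. All 10 endothelial markers were tested, of which 7 fell on day 1 and 4 on day 3. Their mean was -0.63, -0.56 and -0.66 in day 1 replicates 1, 2 and 3, and -0.25, -0.24 and -0.49 on day 3. On both days it was lowest in replicate 3, where Klf2 was highest. The part of these cells in the fall of Klf2 was not tested.

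**Figure D2:**
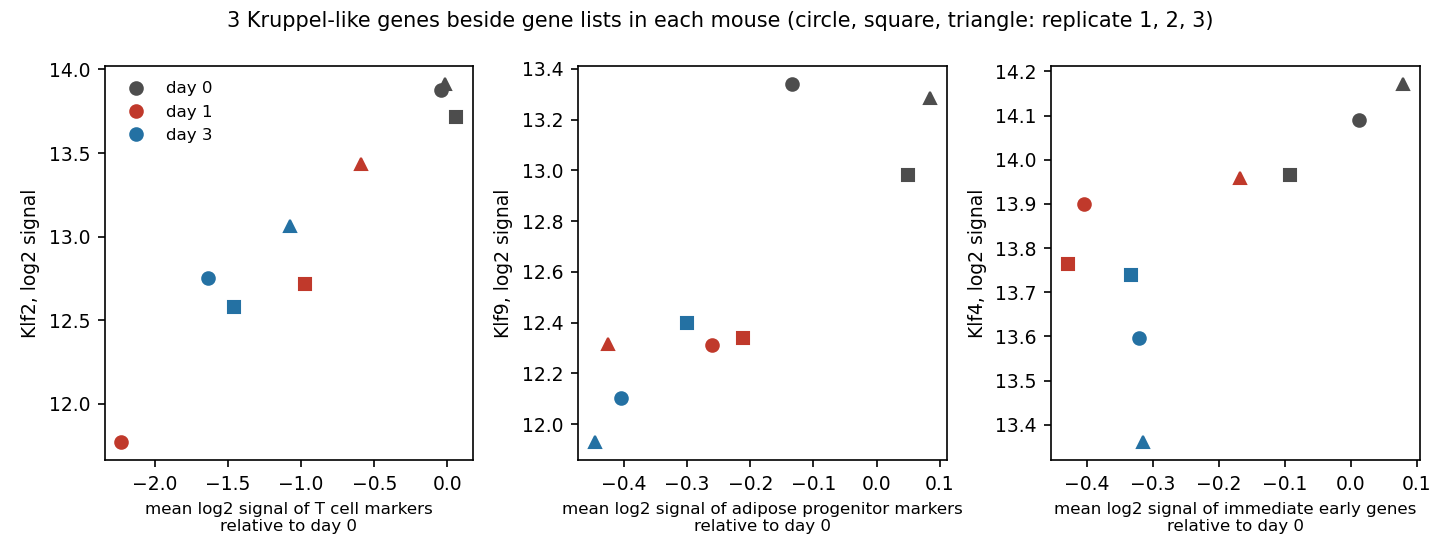
Log2 signal of Klf2, Klf9 and Klf4 (y axes) against the mean log2 signal, relative to day 0, of T cell markers, adipose progenitor markers and immediate early genes (x axes), 1 point a mouse, coloured by day. In the left panel the day 1 mice run from -2.23 to -0.59 on the marker axis, and the mouse with the lowest T cell markers has the lowest Klf2.

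Klf4, known from the reprogramming of cells to pluripotency and as an early factor of adipocyte differentiation, fell on day 3. Its signal was 17430, 15990 and 18440 on day 0, 15290, 13900 and 15910 on day 1, and 12380, 13670 and 10520 on day 3. All 3 days lay apart without overlap, in falling order. The log2 change was -0.20 ± 0.11 on day 1 (adjusted p = 0.18) and -0.51 ± 0.11 on day 3 (adjusted p = 0.00568), and after centring it was -0.08 on day 1. The second probe set of Klf4, 1417395_at, passed the test on both days, with log2 changes of -0.45 ± 0.10 and -0.74 ± 0.10. Its signal was 10710, 10940 and 12650 on day 0, 8185, 7576 and 9329 on day 1, and 6705, 6996 and 6750 on day 3, also without overlap. Between day 1 and day 3, Klf4 changed by -0.31 ± 0.11 (adjusted p = 0.0805), which did not pass, and by -0.43 ± 0.11 after centring (adjusted p = 0.0253), which did.

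Klf6, a gene induced early after vascular and liver injury and a repressor of Dlk1 in fat, had a narrow interval around 0 on day 1. Its signal was 12700, 13830 and 13460 on day 0, 13780, 13050 and 13760 on day 1, and 12020, 12340 and 12780 on day 3. The days overlapped except day 3 with day 1. The log2 change on day 1 was 0.02 ± 0.08, with a 95% interval from -0.15 to 0.20, and on day 3 it was -0.11 ± 0.08, with an interval from -0.28 to 0.07. After centring the day 1 change was 0.14 ± 0.09 (adjusted p = 0.242). The probe sets of Klf6 differed: 1427742_a_at and 1418280_at passed the test as lower on day 3, by -0.38 ± 0.11 and -0.34 ± 0.11, while the other 3 did not, their changes lying between -0.14 and 0.04. For 1418280_at the signals of day 3 were 3427, 3384 and 3423, all under the day 0 signals of 3897, 4748 and 4365.

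Klf7, which is known to hold back adipocyte differentiation and to act in neurons, was lower on day 1 only. Its signal was 1458, 1333 and 1904 on day 0, 1091, 939 and 1307 on day 1, and 1562, 1649 and 1485 on day 3. The day 1 mice lay under those of both other days, by a small margin against day 0. The log2 change on day 1 was -0.49 ± 0.16 (adjusted p = 0.0389) and on day 3 it was 0.02 ± 0.16. This call was weak. It was lost after centring (-0.37 ± 0.15, adjusted p = 0.0904), after quantile normalization (adjusted p = 0.0525) and in 7 of 9 fits that each left out 1 array, with adjusted p up to 0.153. None of the other 3 probe sets of Klf7 passed on day 1, with changes between -0.41 and -0.16.

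In the group that binds C-terminal binding proteins, Klf3, a repressor that acts in B cells and against fat cell differentiation, was read by 7 probe sets. The brightest had a signal of 5141, 4551 and 5855 on day 0, 3551, 4124 and 5263 on day 1, and 5068, 4787 and 5821 on day 3. The days overlapped, and the log2 changes of -0.28 ± 0.15 on day 1 and 0.01 ± 0.15 on day 3 did not pass (adjusted p = 0.184 and 0.955), and after centring the first was -0.16. All 7 probe sets lay under 0 on day 1, between -0.74 and -0.01, and 1 of them, 1441200_at, passed. Its signal was 403, 276 and 333 on day 0 and 158, 193 and 262 on day 1, and it was 279, 283 and 331 on day 3. The dimmest, 1458487_at, passed as lower on day 3, where no array called it present; its fold was 1.89, taken against its own signal on day 3 because that was above the lowest present signal of those arrays, so this is the estimated fold and no bound. Without day 1 replicate 3, the brightest probe set of Klf3 passed on day 1 (-0.43, adjusted p = 0.0269).

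In the Sin3a-binding group, Klf9, known to be induced by glucocorticoids and to raise Pparg in fat cell precursors, had the fall with the smallest p-value of the 8 genes on both days. Its signal was 10360, 8081 and 9974 on day 0, 5080, 5181 and 5103 on day 1, and 4400, 5400 and 3901 on day 3. Every primed mouse was under every control mouse, and the day 1 mice were within 2% of each other. The log2 change was -0.88 ± 0.13 on day 1 (adjusted p = 0.000782) and -1.06 ± 0.13 on day 3 (adjusted p = 0.000193), or 1.84 and 2.08 times lower. After centring it was -0.76 ± 0.13 on day 1. Days 1 and 3 overlapped and differed by -0.18 ± 0.13 (adjusted p = 0.385).

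The 6 probe sets of Klf9 that passed the filter, which share their mice and are no replicates of the condition, changed by -1.08 to -0.71 on day 1 and by -1.44 to -0.81 on day 3, and all 6 passed the test on both days. The seventh, 1452723_at, was dim, with signals of 34 to 71, and did not pass the filter. Both calls of Klf9 held in all 9 fits that left out 1 array, with changes from -0.99 to -0.81 on day 1 and from -1.18 to -0.95 on day 3. Of 8 markers of adipose progenitors tested (9 listed), 2 fell on day 1 (Pdgfrb and Cd248) and 4 on day 3 (Dpp4, Pi16, Dcn and Lum). Pdgfrb and Cd248 were at 0.18 and 0.07 on day 3 and did not pass there. The mean log2 signal of the list relative to day 0 was between -0.43 and -0.21 on day 1 and between -0.45 and -0.30 on day 3, with summed signals of 82740 to 95740 on day 0, 69880 to 87810 on day 1 and 63410 to 68550 on day 3. Their part in the fall of Klf9 was not tested.

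Klf13, known in T cells as a late activator of the chemokine gene Ccl5, fell on day 1. Its signal was 1472, 1010 and 1484 on day 0, 609, 774 and 918 on day 1, and 1168, 1107 and 1061 on day 3. All day 1 mice lay under all mice of the other days, while by this probe set day 3 lay inside the range of day 0. The log2 change was -0.78 ± 0.18 on day 1 (adjusted p = 0.00919), -0.66 ± 0.17 after centring, and -0.23 ± 0.18 on day 3 (adjusted p = 0.378). The second probe set, 1432543_a_at, changed by -1.09 ± 0.23 on day 1 and passed too. On day 3 its signals of 1070, 1085 and 1015 all lay under those of day 0 (1645, 1170 and 1569), with a change of -0.45 ± 0.23 that did not pass (adjusted p = 0.175). The third, 1456030_at, was absent on all 9 arrays. The rise from day 1 to day 3 was 0.55 ± 0.18 and did not pass (adjusted p = 0.0618).

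Klf10, the early gene induced by transforming growth factor beta, had signals of 2303, 1840 and 2178 on day 0, 2174, 1484 and 1728 on day 1, and 1754, 1690 and 1877 on day 3. The days overlapped. The log2 changes were -0.24 ± 0.15 on both days, with a 95% interval on day 1 from -0.57 to 0.08, and did not pass. After centring the day 1 change was -0.12.

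**Figure D3:**
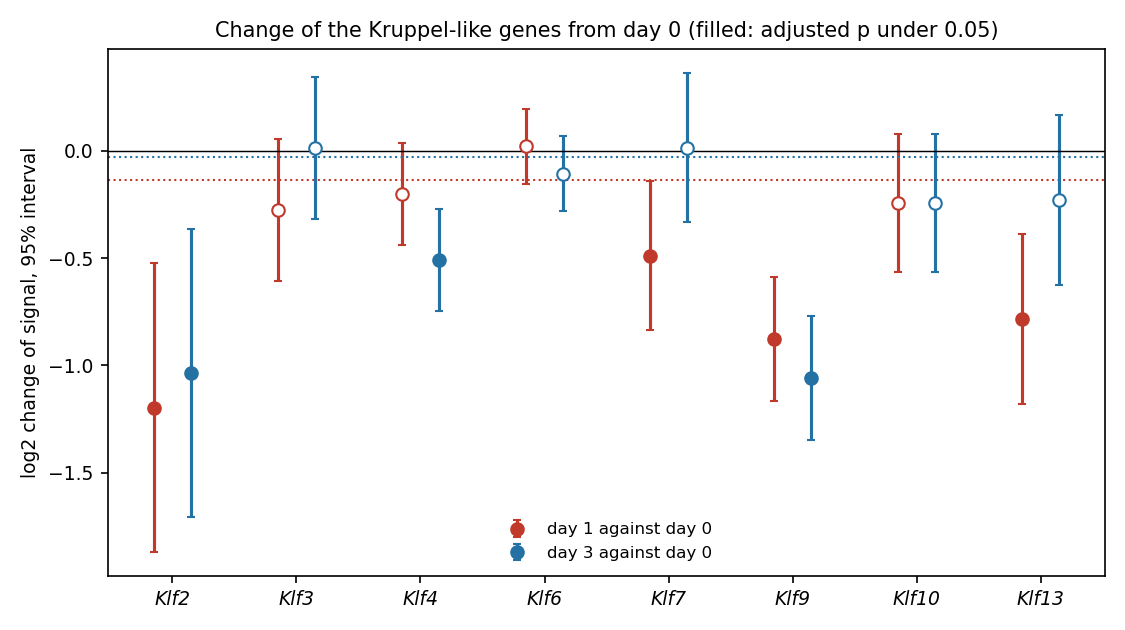
Log2 change of signal from day 0 (y axis) of the 8 genes (x axis) on day 1 and day 3, with 95% intervals from the fit of 3 mice a day; filled points passed the test and dotted lines are the medians of all genes, -0.13 and -0.03. The filled points are Klf2, Klf7, Klf9 and Klf13 on day 1 and Klf2, Klf4 and Klf9 on day 3, all below 0.

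On day 1, 4 of 8 members were called lower, or 50%, where 17.9% of all genes tested were, and 0 were called higher, where 10.7% of all genes were. On day 3, 3 of 8 were called lower, or 37.5%, against 12.5% of all genes, and 0 higher, against 13.6%. The median change of the 8 was -0.38 on day 1 and -0.24 on day 3, and that of all genes was -0.13 and -0.03. The mice of day 1 and day 0 did not overlap for 5 members, where 40% of all genes did not overlap, and on day 3 this held for 3 members against 47.2% of all genes. By overlap alone the members thus lay near the background on day 3. Both comparisons share the control mice.

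Between day 1 and day 3, limma called 0 members in either direction, where 9.66% of all genes were called higher and 4.54% lower. At an unadjusted p under 0.05 there were 3, Klf4 lower and Klf7 and Klf13 higher on day 3. The mice did not overlap for 4 members (Klf4, Klf6, Klf7 and Klf13), against 35% of all genes. Leaving out day 1 replicate 3, which had the most probe sets called present of its day, made Klf3, Klf7 and Klf13 pass as higher on day 3.

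**Figure D4:**
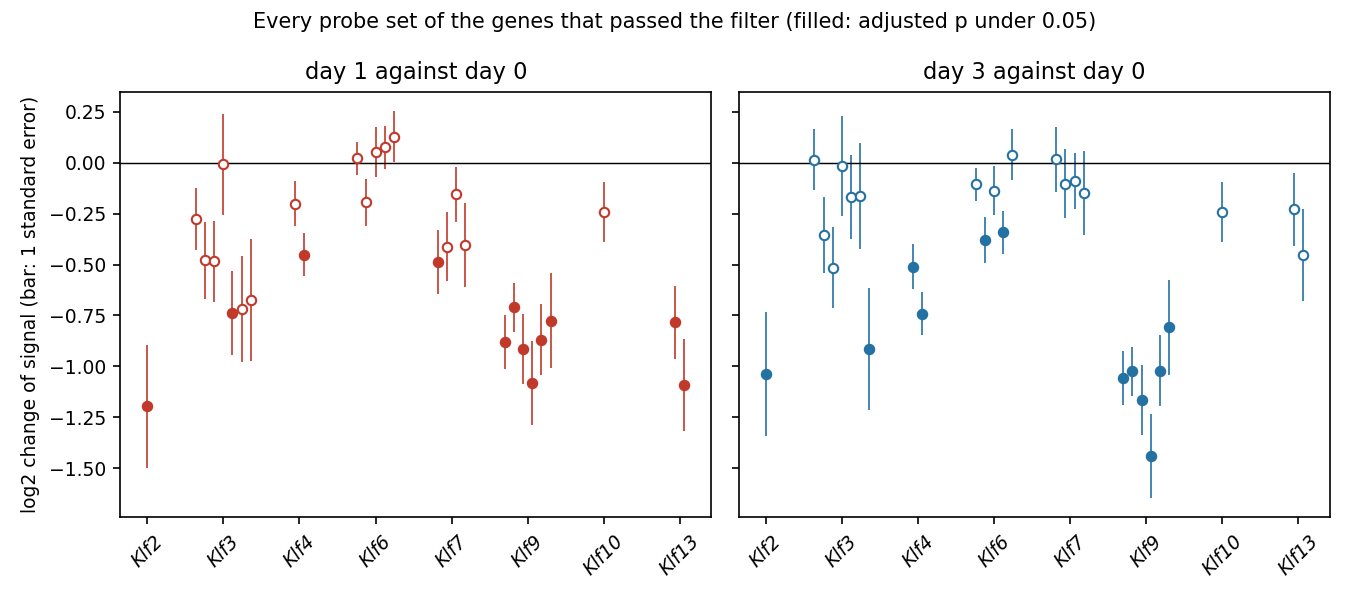
Log2 change of signal from day 0 (y axis), with 1 standard error, of the 28 probe sets that passed the filter, grouped by gene (x axis), on day 1 (left) and day 3 (right); filled points passed the test over all probe sets. All 6 of Klf9 are filled on both days, and 1 of 7 of Klf3 on each day.

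Over the 9 arrays the members formed no single pattern. The log2 signals of Klf3, Klf7 and Klf13 had Pearson correlations of 0.77 to 0.83 with each other, and Klf4 had one of 0.86 with Klf9. Klf2 had correlations of 0.77 with Klf13, 0.70 with Klf3 and 0.70 with Klf9. Klf6 had negative ones with Klf3, Klf7 and Klf13, from -0.42 to -0.28. These correlations span the days, so that they hold the changes given above, and they are a description.

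The genes whose signals over the 9 arrays were most like those of each member were also listed. For Klf2 they were Gpr18 (r = 0.99), a receptor expressed in lymphocytes, Zfp869 and Limd2. Gpr18 changed by -1.13 on day 1 (adjusted p = 0.0375) and by -1.02 on day 3 (adjusted p = 0.0582), where it did not pass. For Klf9 they were Klhl13 (r = 0.99), Srpx and Ism1. For Klf4 they were Pde6h, Ddr2, a collagen receptor of fibroblasts, and Tpsb2, a mast cell tryptase (r = 0.96, 0.96 and 0.95). Mast cell markers, all 5 tested, had a mean log2 signal relative to day 0 of -0.14 to 0.08 on day 1 and of -0.72 to -0.40 on day 3. On day 3, 4 of them fell. Kit did not, with signals of 573, 508 and 703 on day 0 and 702.5, 923 and 890 on day 3. The part of these markers in the fall of Klf4 was not tested.

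The genes most like Klf13 were Med25, Fry and Wdr6 (r = 0.98 each). Fry changed by -1.19 on day 1 (adjusted p = 0.00162) and by -0.38 on day 3 (adjusted p = 0.186), where it did not pass. For Klf7 they were Heatr5b, Rtn3 and Map3k3 (r = 0.98 each). For Klf3 they were Zbtb45, Bahd1 and Rbm33 (r = 0.97, 0.97 and 0.96), for Klf10 Meis2, Ank2 and Ptprd (r = 0.95, 0.92 and 0.91), and for Klf6 Katna1, Plekha4 and Dusp14 (r = 0.93 each).

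Of the 9 other KLF genes listed, 5 were tested, and 2 of them fell on day 1 and none passed on day 3. Over all genes, 17.9% fell on day 1 and 12.5% on day 3. Klf5, which acts early in adipocyte differentiation, had signals of 281, 267 and 297 on day 0, 183, 182 and 189 on day 1, and 208, 232 and 197 on day 3. No primed mouse reached the range of day 0. Its change was -0.61 ± 0.14 on day 1 (adjusted p = 0.00979) and -0.41 ± 0.14 on day 3 (adjusted p = 0.0521). Klf12, a repressor of the Klf3 group, changed by -0.78 ± 0.22 on day 1 (adjusted p = 0.0244) and -0.33 ± 0.22 on day 3. Klf16, Klf11 and Klf17 did not pass, with day 1 changes of -0.45, -0.12 and -0.14. Klf1, Klf14 and Klf15 did not pass the detection filter, and Klf8 was not analysed here. The day 1 calls of Klf5 and Klf12 held after centring but not after quantile normalization (-0.37 and -0.58, adjusted p = 0.0921 and 0.0693). On day 3 Klf5 passed as lower after centring (-0.41 ± 0.14, adjusted p = 0.0486).

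Of the 9 related Sp genes, 4 were tested. Sp1, a widely expressed factor of GC boxes, fell on day 1 by -0.49 ± 0.12 (adjusted p = 0.0133), with signals of 2566, 2631 and 2699 on day 0 and 1618, 1874 and 2169 on day 1. Sp4 fell on day 3 by -0.66 ± 0.21 (adjusted p = 0.0392). Sp3 and Sp7 passed on neither day, and Sp3 changed by -0.03 and -0.19. After centring and after quantile normalization Sp1 passed as lower on day 3 too (-0.36 and -0.39).

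Among 13 tested cofactors and ubiquitin ligases of KLF proteins, 1 rose and 3 fell on day 1, and 2 rose on day 3. Over all genes, 10.7% rose and 17.9% fell on day 1, and 13.6% rose and 12.5% fell on day 3. Sin3a, the corepressor of the Klf9 group, fell on day 1 by -0.54 ± 0.15 (adjusted p = 0.0188), while its paralog Sin3b rose by 0.55 ± 0.12 (adjusted p = 0.00594), read by a probe set of the kind that may also bind other transcripts. On day 3 Ctbp2, a partner of Klf3, and Wwp1, a ubiquitin ligase, rose by 0.54 ± 0.14 and 0.63 ± 0.18. Ctbp1, the paralog of Ctbp2, fell on day 1 by -0.33 ± 0.09 (adjusted p = 0.0208), a call lost after centring (adjusted p = 0.117), and was at -0.08 ± 0.09 on day 3. Ep300 and Crebbp, the acetyltransferases of the activator group, did not pass on either day, with day 1 changes of -0.16 and -0.44. The median of the list was -0.16 on day 1 and 0.02 on day 3, beside -0.13 and -0.03 over all genes, and after centring 1 rather than 3 members of the list were lower on day 1.

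Among 13 tested genes known to signal to KLF genes, 4 fell on day 1, and 1 rose and 2 fell on day 3. Over all genes, 17.9% fell and 10.7% rose on day 1, and 12.5% fell and 13.6% rose on day 3. The MEF2 factors, which bind sites such as the one shown for Klf2, did not move alike. Mef2c had signals of 2986, 2137 and 2012 on day 0, 1123, 1352 and 1877 on day 1, and 1373, 932 and 1397 on day 3. No primed mouse overlapped with the control mice, and the changes were -0.72 ± 0.22 on day 1 (adjusted p = 0.031) and -0.95 ± 0.22 on day 3 (adjusted p = 0.00916). Mef2d changed by -0.78 ± 0.18 on day 1 (adjusted p = 0.00961) and by -0.08 ± 0.18 on day 3, and Mef2a did not pass on either day. Srf changed by -0.81 ± 0.18 on day 1 (adjusted p = 0.00876). The mechanosensitive channel gene Piezo1 rose by 0.60 ± 0.13 on day 3. The glucocorticoid receptor gene Nr3c1, whose product is known to induce Klf9, changed by -0.21 ± 0.12 on day 1, which did not pass, and fell by 0.42 ± 0.12 on day 3 (adjusted p = 0.0203). Map2k5 changed by -0.42 ± 0.14 on day 1 (adjusted p = 0.0373), a call lost after centring (-0.30 ± 0.14, adjusted p = 0.127), and by -0.01 ± 0.14 on day 3. Mapk7 was not tested. After centring, 2 rather than 4 genes of the list passed on day 1, Mef2d and Srf, while Mef2c was at -0.60 ± 0.21 (adjusted p = 0.0567). The median of the list was -0.19 on day 1 and 0.02 on day 3, beside -0.13 and -0.03 over all genes. Mef2c is also expressed in B cells, whose markers are given above. The part of these cells in the fall of Mef2c was not tested.

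Of 15 tested genes that KLF proteins are reported to regulate, 2 rose and 4 fell on day 1, and 2 rose and 5 fell on day 3. Over all genes 10.7% rose and 17.9% fell on day 1, and 13.6% rose and 12.5% fell on day 3. After quantile normalization 4 genes of the list rose on day 3, Cebpb and Tgfb1 being gained. S1pr1, the receptor by which T cells leave lymphoid organs and a known target of Klf2, had signals of 2266, 2129 and 2321 on day 0, 666, 1366 and 1650 on day 1, and 1302, 1461 and 1668 on day 3. No primed mouse overlapped with the controls, but only day 1 passed (-0.97 ± 0.26, adjusted p = 0.0192), day 3 being at -0.61 ± 0.26 (adjusted p = 0.111). Itgb7, an integrin of gut-homing lymphocytes, changed by -1.01 ± 0.18 and -1.34 ± 0.18 and passed on both days. Of the Klf2 targets known from endothelial cells, Thbd fell on day 3 by -0.55 ± 0.14, and Nos3 passed on neither day.

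Of the adipocyte genes of this list, Pparg, a target of Klf9, had signals of 1021, 1008 and 862 on day 0, 577, 793 and 488 on day 1, and 650, 595 and 575 on day 3. No primed mouse reached the control range, and the changes of -0.66 ± 0.17 and -0.67 ± 0.17 passed on both days (adjusted p = 0.015 and 0.0143). Cebpd changed by -1.06 ± 0.19 on day 3 and Cebpa by 0.77 ± 0.16. Dlk1, the preadipocyte gene that Klf6 represses, was dim and did not pass. Lgals3, a galectin of macrophages, rose by 1.52 ± 0.19 and 1.30 ± 0.19, and of the 8 monocyte and macrophage markers tested (9 listed) 6 rose on day 1 and Csf1r fell, their mean lying 1.04 to 1.34 above day 0. Ccl5, the target of Klf13, changed by -0.56 ± 0.27 on day 1, which did not pass, and by -0.89 ± 0.27 on day 3 (adjusted p = 0.0328). The median of the list was -0.25 on day 1 and -0.26 on day 3, beside -0.13 and -0.03 over all genes. After centring, 4 genes of the list were higher and 3 lower on day 1, Cdkn1a and Cebpa passing as higher and Eng no longer as lower.

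Several KLF genes respond to stimuli within minutes, as the immediate early genes do, and so can change while tissue is digested. Of 18 tested immediate early genes, 9 fell and 1 rose on day 1, and 8 fell and 1 rose on day 3, with medians of -0.32 and -0.36. Over all genes, 17.9% fell and 10.7% rose on day 1, and 12.5% fell and 13.6% rose on day 3. The medians of all genes were -0.13 and -0.03. After centring, 8 genes of the list fell on day 1. Jun had signals of 19110, 20890 and 23070 on day 0, 13710, 10640 and 15630 on day 1, and 12550, 10880 and 9869 on day 3. No primed mouse reached a control mouse, and the changes were -0.67 ± 0.14 and -0.92 ± 0.14. Btg2 changed by -0.53 ± 0.13 and -0.72 ± 0.13, and Egr3 and Fosb by -1.01 ± 0.25 and -0.76 ± 0.18 on day 1. Fos itself did not pass, with changes of -0.19 ± 0.08 and -0.14 ± 0.08. Ier3 rose by 0.61 ± 0.11 and 0.45 ± 0.11. The mean of the list relative to day 0 was -0.43 to -0.17 on day 1 and -0.33 to -0.32 on day 3. Its part in the falls of Klf4 and the other members was not tested.

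The RNA of cell type markers in the SVF moved with the day. Of 7 neutrophil markers tested (11 listed), 6 rose on day 1 and 5 on day 3, and Mmp9 passed on neither day. The mean of the list lay 3.74 to 4.13 above day 0 on the log2 scale on day 1 and 2.31 to 2.81 above it on day 3. Of the keratinocyte markers Krt5, Krt14 and Krt15 were present on 0 arrays, while the adipocyte marker Adipoq was present on 9, Cidec on 8 and Lep on 0. The 2 adipocyte markers tested (4 listed), Adipoq and Cidec, did not pass on day 1 and fell on day 3. Their mean log2 signal relative to day 0 was -0.65 to -0.22 on day 1 and -1.28 to -0.95 on day 3. Signs of RNA quality moved as well. The 3' Gapdh control was 0.537 to 0.592 times the 5' one on day 0, 0.671 to 0.693 times on day 1 and 0.633 to 0.709 times on day 3, so that primed and control arrays did not overlap. Probe sets called present numbered 25677 to 26299 on day 0, 24106 to 25557 on day 1 and 25069 to 25292 on day 3, again with every primed array under the controls. The actin ratio overlapped between the days, at 1.15 to 1.32. The part of these shifts in the falls of the members was not tested, and they cannot be told apart from the day.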

How the data were processed

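RNA of SVFs from 9 mice, 3 on each of days 0, 1 and 3, was hybridized to Affymetrix Mouse430_2 arrays. As deposited, the authors' files hold for each of 45101 probe sets a MAS5 signal on a linear scale, scaled by the authors to a common trimmed mean (2% left out at each end), with a detection call. The version of MAS5 and a genome build are not given in the sources used here. Of the probe sets, 932 carry several symbols and 9160 none, and were not used. Log2 signals, without an offset, entered a linear model in limma 3.58.1 (eBayes with a variance trend, two-sided, 6 residual degrees of freedom), run in R 4.3.3 after reading with the package data.table (version 1.17.8). The number of arrays limits the precision. The fit was tested on simulated data. The named genes are the members, the other KLF and Sp genes, up to 4 called and 2 uncalled genes of each other list, and the 3 genes most correlated with each member. Nr3c1, Ier3, Pparg, Cebpa, Ccl5, Thbd, Cdkn1a, Eng, Cebpb, Tgfb1, Map2k5 and Ctbp1 were named after their values were seen. Members and lists were chosen with earlier results of these data known. The alternatives are quantile normalization, median centring, offsets of 16 and 64, other filters, other treatment of probe sets, no trend, 6 arrays, a replicate block, leaving out each array, and the methods' thresholds. Promoters are from RefSeq (GRCm38.p6).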

Additional observations from a re-analysis of the deposited data

How the results depend on the processing

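Of 504 repeats of the members' changes under the alternatives, 467 kept their direction and side of the threshold, 26 lost the call, 11 gained one and 0 reversed. The count of members lower on day 1 was 4, and 0 under the methods' thresholds (an unadjusted p under 0.05 for the day and a change of 2-fold). There Klf9 was under 2-fold and Klf2 missed the p limit. The p used here came from day alone, without a replicate term, while the paper names an analysis of variance for repeated measurements. The count lower on day 1 was 3 after centring and after quantile normalization. It was 6 when any probe set of a gene could call it, and 2 to 5 when 1 array was left out. The count lower on day 3 was 3, and 1 (Klf9) under the methods' thresholds, 5 with any probe set, and 2 to 3 when 1 array was left out. Between day 3 and day 1 the count higher was 0, and 1 (Klf7) with only 6 arrays, and 0 to 3 when 1 array was left out, while the count lower was 1 after centring (Klf4) and 1 with any probe set (Klf6). With the replicate number as a block the counts lower on days 1 and 3 were 4 and 3, and 1 member, Klf7, became higher between day 3 and day 1 (adjusted p = 0.044). It changed no other call. The numbers share no animal: deviations of samples with the same number correlated from -0.15 to 0.33, and others from -0.40 to 0.31. Klf2 on day 3 lost its call without a variance trend (adjusted p = 0.0535). Over all genes, day 1 had 1268 higher and 2110 lower, against 1699 and 1272 after centring, 1919 and 3436 probe sets one by one, 959 and 1402 with 6 arrays, and 424 and 328 by the methods' thresholds; leaving out 1 array gave 806 to 1685 and 1000 to 2863. Day 3 had 1600 and 1474, against 2307 and 2430 one by one, 522 and 338 by the methods' thresholds, and 1058 to 1807 and 831 to 1811 without 1 array. Day 3 against day 1 had 1140 and 536, against 659 and 860 after centring, 245 and 200 by the methods' thresholds, and 474 to 1823 and 253 to 1000 without 1 array. Beyond fewer samples or genes, the cause was not tested.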
